A study of Mus musculus with 6 samples.

Results

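The collagen chains of mouse lower abdominal muscle (LAM) were taken as every gene of the count table whose symbol is Col, a number, the letter a and a number. The rule found 40 of 16494 genes, and no measured value entered it. By the type of assembly that each chain builds, they comprise 10 fibrillar chains, 6 basement membrane chains of collagen IV, 2 chains of the collagen VIII network, 5 beaded filament chains of collagen VI, 1 anchoring fibril chain (Col7a1), 8 fibril-associated chains (FACITs), 4 transmembrane chains, 2 multiplexins (Col15a1 and Col18a1) and 2 other chains (Col26a1 and Col28a1). Col2a1, Col6a4, Col9a1, Col10a1 and Col21a1 were not analysed here.

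Cells of 6 male FVB/N mice aged 9 to 10 weeks were sequenced one by one, 3 of them wild type (WT) and 3 carrying the Arom hum transgene (Arom). The transgene is human CYP19A1, the gene for aromatase, which converts androgens into estrogens, under its own human promoters. Arom mice are labelled as having scrotal hernias and their WT littermates as controls. The tissue was digested with collagenase and dispase and strained against multinucleated cells, so muscle fibers could enter as fragments or nuclei only. CYP19A1 had 0 unique molecular identifiers (UMIs, each standing for 1 captured RNA molecule) in each WT mouse and 770, 797 and 787 in the Arom mice.

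The libraries hold 7905 to 10820 barcodes and 64958237 to 72876541 UMIs in WT mice, and 8979 to 13764 barcodes and 92652109 to 111826460 UMIs in Arom mice. Among all barcode sequences, 471 occurred in more than 1 library. Barcodes over 2500 genes, the upper limit stated by the study, made up 25.5% to 35.2% of the WT libraries and 36.0% or more of each Arom library. Every deposited barcode was used in the main comparisons, and 18852 of 63647 lie within the stated limits. Barcodes were grouped without any collagen gene and named from marker lists, which gave 22040 fibroblast-like cells, and 5686 barcodes stayed unnamed.

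Collagens are triple helices of 3 chains. The fibrillar collagens I, III and V make up the tensile fibers of muscle connective tissue, tendon and fascia. Collagen IV forms the meshwork of basement membranes around muscle fibers, vessels and nerves, collagen VI links that layer to the interstitial matrix, and FACITs such as collagens XII, XIV and XVI sit on the surface of fibrils. Fibroblasts are the main makers of fibrillar collagen in muscle, and excess deposition is the hallmark of fibrosis.

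Fibroblast-like cells held most collagen transcripts. They carried 81.8%, 71.7% and 63.2% of all collagen UMIs in WT1 to WT3 and 89.1%, 89.3% and 83.0% in Arom1 to Arom3. Within these cells, collagen chains made up 1.52%, 1.96% and 2.14% of all UMIs in WT and 3.76%, 3.09% and 2.96% in Arom animals, so that the genotypes did not overlap. A sum over members was not tested.

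**Figure D1:**
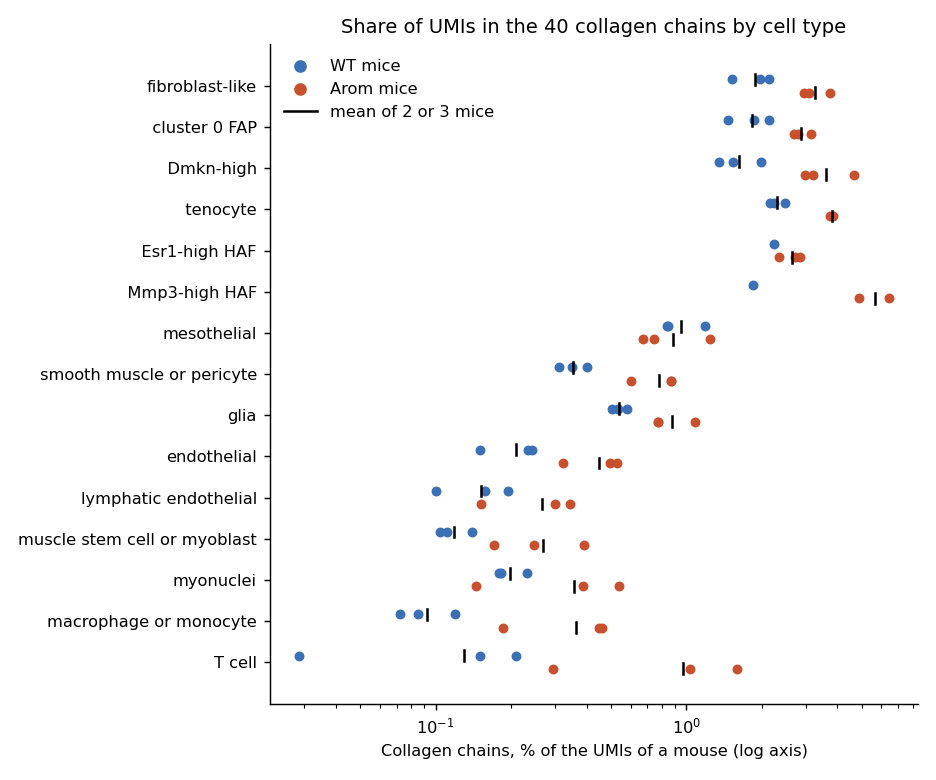
Collagen UMIs of each cell type and, indented, of subgroups of fibroblast-like cells, as a percent of all UMIs of that type or subgroup in a mouse (log axis). Each point is 1 mouse with at least 10 such cells and the black bar is the mean of 2 or 3 mice; fibroblast-like cells sit between 1.52% and 3.76% and endothelial cells between 0.150% and 0.530%.

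Levels are given as CPM, the UMIs of a gene scaled to a common total of UMIs for that cell type in each mouse, as mean ± SD over the mice of both genotypes. The protocol counts the 3′ ends of transcripts, so no division by gene length was made. Differences between cell types are descriptions, without a test. In fibroblast-like cells the 3 leading chains were Col3a1 (7802 CPM), Col1a2 (7032 CPM) and Col1a1 (4903 CPM), the chains of collagens III and I. The same 3 chains led in fibro-adipogenic progenitors (FAPs, the resident mesenchymal progenitors of muscle), Dmkn-high cells, tenocytes, mesothelial cells, glia, macrophages, T cells and myonuclei. Only the order differed. Tenocytes, the fibroblasts of tendon, were led by Col1a2 (10750 CPM) and Col1a1 (9885 CPM) with Col3a1 at 3558 CPM, whereas FAPs were led by Col3a1 (8210 CPM).

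Vascular cells and muscle stem cells had another makeup, and there the order of the leading chains depended on the genotype, so the means of 3 mice are given for each. WT endothelial cells were led by Col4a1 (1050 CPM) and Col4a2 (618 CPM), the ubiquitous pair of collagen IV, ahead of Col15a1 (94.7 CPM), whereas Col4a1 (941 CPM), Col3a1 (924 CPM) and Col1a2 (716 CPM) led in Arom mice. In smooth muscle cells or pericytes Col3a1 (641 CPM), Col4a1 (640 CPM) and Col4a2 (430 CPM) led in WT, and Col3a1 (2032 CPM), Col1a2 (1051 CPM) and Col4a1 (1041 CPM) in Arom mice. In muscle stem cells or myoblasts Col3a1 (295 CPM), Col4a1 (204 CPM) and Col6a1 (105 CPM) led in WT, and Col3a1 (758 CPM), Col1a2 (306 CPM) and Col4a1 (254 CPM) in Arom mice. In lymphatic endothelial cells Col18a1, the precursor of endostatin, led in WT at 323 CPM and came second to Col3a1 (556 CPM) in Arom mice at 391 CPM.

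Levels of some further chains are given for single cell types or subgroups. The share of UMIs held there is given for Col20a1, Col28a1 and Col4a6 only, and a high level need not mean most UMIs of a chain. Col20a1 reached 316 ± 81.0 CPM in glia, which held 87.2% of its UMIs, and glia also held 64.4% of the UMIs of Col28a1, at 44.8 ± 7.43 CPM. Tenocytes had 327 ± 63.4 CPM of Col11a1, a regulator of fibril diameter, and 1215 ± 277 CPM of Col12a1, the FACIT of tendon and fascia. Mesothelial cells, the lining of the abdominal cavity, had 207 ± 139 CPM of Col6a5 and 32.0 ± 7.04 CPM of Col4a6, and held 64.7% of the UMIs of Col4a6. Col23a1, a transmembrane collagen, reached 72.8 ± 16.2 CPM in lymphatic endothelial cells, and Col15a1 reached 413 ± 80.3 CPM in FAPs. Col14a1 was highest in Dmkn-high fibroblasts, at 886 ± 131 CPM.

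The rarest members were Col19a1 with 56 UMIs, Col9a2 with 226, Col7a1 with 232 and Col26a1 with 272 in all 6 libraries. Col19a1 was counted at 0 in 4 libraries, Col9a2 and Col22a1 at 0 in 2 and Col7a1 at 0 in 1, while the remaining libraries had at least 21 UMIs of each. No fold change is given for them where a library is at 0.

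**Figure D2:**
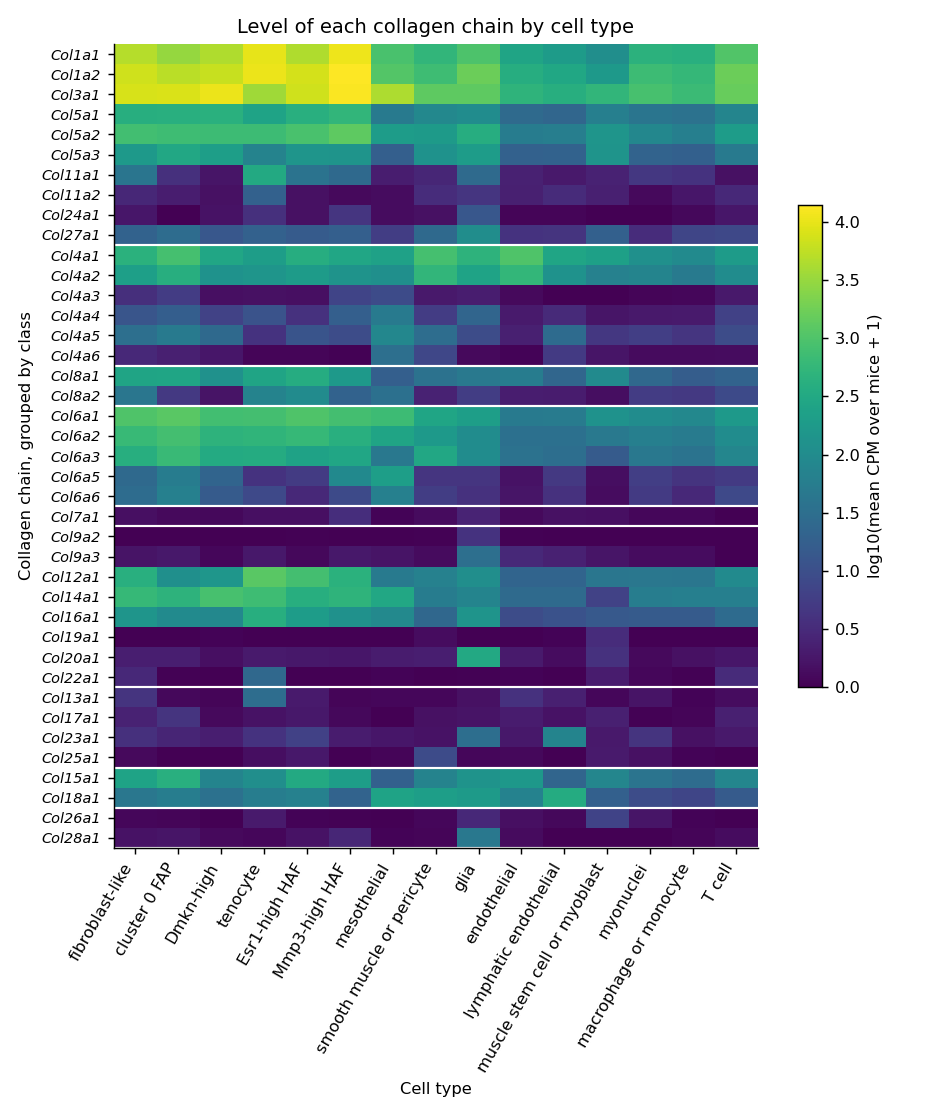
Mean level of each of the 40 chains (rows, grouped by class between white lines) in each cell type (columns), as log10 of the mean CPM over mice plus 1. The top rows of fibrillar chains are bright in every fibroblast-like column, while Col20a1 and Col28a1 stand out in glia, Col4a6 in mesothelial cells and Col23a1 in lymphatic endothelial cells.

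The promoters of 3 fibrillar chains that were higher in Arom fibroblast-like cells are shown because these chains belong to collagens I, III and V and moved together there. Each sequence is the 250 bases before the start that RefSeq annotates, 5′ to 3′ on the strand of the gene (GRCm38.p6), with capitals for GC boxes (GGGCGG, either strand), CCAAT boxes and TATA boxes (TATAAA). Col1a2 lies on chromosome 6 (chr6:4505368-4505617, + strand), Col3a1 on chromosome 1 (chr1:45311288-45311537, + strand) and Col5a1 on chromosome 2 (chr2:27886175-27886424, + strand). The GENCODE gene model of Col1a2 starts further upstream, at base 4504814, so the Col1a2 window lies inside that model.
Col1a2: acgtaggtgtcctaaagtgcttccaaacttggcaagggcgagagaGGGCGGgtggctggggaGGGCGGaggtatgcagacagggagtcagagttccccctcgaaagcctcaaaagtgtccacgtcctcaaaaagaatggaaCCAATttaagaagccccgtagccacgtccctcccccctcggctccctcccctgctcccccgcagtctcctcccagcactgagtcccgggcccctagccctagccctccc
Col3a1: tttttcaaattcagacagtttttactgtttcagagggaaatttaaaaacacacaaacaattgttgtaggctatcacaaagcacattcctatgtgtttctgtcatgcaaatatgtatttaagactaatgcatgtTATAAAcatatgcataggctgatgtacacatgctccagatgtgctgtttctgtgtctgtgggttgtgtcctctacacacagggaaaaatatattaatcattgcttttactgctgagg
Col5a1: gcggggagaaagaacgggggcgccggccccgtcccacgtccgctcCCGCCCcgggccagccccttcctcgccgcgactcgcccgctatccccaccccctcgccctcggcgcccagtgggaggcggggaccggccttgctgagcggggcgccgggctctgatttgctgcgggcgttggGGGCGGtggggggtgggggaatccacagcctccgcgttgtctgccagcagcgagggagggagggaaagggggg

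The Col1a2 window holds GC boxes that start at -205 and -188 and a CCAAT box at -109, the Col3a1 window a TATA box at -117, and the Col5a1 window GC boxes at -205 and -73. A window was found for 32 of the 40 chains, and none was used here for Col1a1 and Col5a2. On either strand, the GC box occurred in a window of 20 of the 32 chains, against 32.7% of 32851 single windows of all genes. CCAAT occurred for 11 chains, against 33.8%, and TATAAA for 4, against 12.4%. A chain was counted if any of its windows matched, so these counts and the shares of single windows are not of the same unit. The full palindromic estrogen response element, the site bound by estrogen receptors, occurred for 0 of the 32 chains and in 0.0639% of all windows. A match is a description of these letters, not a site in use.

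The chains of collagens I and III and the main chains of collagen V were higher in the fibroblast-like cells of Arom mice. Of 37 chains that passed the filter on low counts, 8 were called higher and 2 lower at an adjusted p of 0.05 (edgeR quasi-likelihood test on UMIs summed per mouse), against 7.92% of all tested genes called higher and 5.72% called lower. The median log2 fold change was 0.19 over these chains and 0.01 over all tested genes. Col28a1, among the 8 called higher, passed the filter through its Arom counts only. Among the 10 fibrillar chains 5 rose, namely Col1a1, Col1a2, Col3a1, Col5a1 and Col5a2, none fell, and Col5a3, Col11a1, Col11a2, Col24a1 and Col27a1 did not pass. Values below are CPM normalised with TMM size factors.

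Marker levels moved in these cells as well. The 12 fibroblast-like markers summed to 47123, 42132 and 41533 CPM in WT and 30805, 29519 and 33991 CPM in Arom mice, and the 12 macrophage or monocyte markers to 23.6, 21.3 and 18.1 CPM against 70.2, 44.3 and 33.3 CPM, with no marker at 0. Neither sum overlapped between genotypes, and their part in the collagen calls was not tested.

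Col3a1, the chain of collagen III, stood at 3944, 5640 and 5997 CPM in WT1 to WT3 and at 12694, 10001 and 8526 CPM in Arom1 to Arom3. Every Arom mouse was above every WT mouse, and the log2 fold change was 1.00 (SE 0.24, adjusted p = 0.039, edgeR). Both chains of collagen I moved alike. Col1a1 stood at 2978, 3218 and 3979 CPM against 8182, 6058 and 5044 CPM, a log2 fold change of 0.92 (SE 0.22, adjusted p = 0.041, edgeR). Col1a2 stood at 4823, 4598 and 5452 CPM against 10651, 9381 and 7353 CPM, a log2 fold change of 0.88 (SE 0.19, adjusted p = 0.033, edgeR). In all 3 of these chains Arom1 was the highest mouse and Arom3 the lowest of the Arom mice.

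Collagen V, which nucleates collagen I fibrils, rose through the same pair of chains that form its main trimer. Col5a2 stood at 503, 571 and 596 CPM in WT and at 1115, 1022 and 812 CPM in Arom mice, a log2 fold change of 0.82 (SE 0.15, adjusted p = 0.024, edgeR). Col5a1 stood at 218, 284 and 320 CPM against 580, 465 and 482 CPM, a log2 fold change of 0.89 (SE 0.17, adjusted p = 0.026, edgeR). Neither chain overlapped between genotypes. The third chain of collagen V, Col5a3, had a log2 fold change of 0.47 (adjusted p = 0.217, edgeR), and its mice overlapped.

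The FACITs divided. Col12a1 stood at 300, 253 and 309 CPM in WT and at 634, 613 and 409 CPM in Arom mice, with a log2 fold change of 0.94 (SE 0.19, adjusted p = 0.028, edgeR). Col16a1 stood at 116, 118 and 128 CPM against 164, 153 and 192 CPM, with a log2 fold change of 0.49 (SE 0.11, adjusted p = 0.037, edgeR). By the mean of each genotype Col14a1 was more abundant than either in these cells, and it did not pass. It stood at 612 ± 96.5 CPM in WT and 603 ± 26.4 CPM in Arom mice (SD, n = 3), with a log2 fold change of -0.02 (adjusted p = 0.928, edgeR).

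Collagen IV did not follow the fibrillar chains. Col4a1 had 417 ± 109 CPM in WT and 464 ± 87.5 CPM in Arom mice (log2 fold change 0.15, SE 0.23, adjusted p = 0.663, edgeR) and Col4a2 had 205 ± 57.9 and 237 ± 43.9 CPM (0.21, SE 0.23, adjusted p = 0.563, edgeR). The minor chains of collagen IV had negative log2 fold changes, and 2 of them passed the test. They were the only chains called lower among the 37 tested, against 5.72% of all tested genes, so lower calls were about as frequent as over all genes. Col4a4 stood at 10.3, 16.6 and 17.3 CPM in WT and 8.65, 8.36 and 8.29 CPM in Arom mice (-0.80, SE 0.20, adjusted p = 0.043, edgeR). Col4a6 stood at 3.53, 2.08 and 3.23 CPM against 0.64, 1.01 and 1.50 CPM (-1.50, SE 0.36, adjusted p = 0.040, edgeR), and the genotypes did not overlap in either chain. The partner chains Col4a3 (-0.57, adjusted p = 0.278) and Col4a5 (-1.03, adjusted p = 0.086) did not pass the edgeR test.

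Col4a6 was highest in mesothelial cells, whose 10 markers summed to 52.3, 53.4 and 55.9 CPM in WT and 47.3, 48.1 and 56.1 CPM in Arom fibroblast-like cells, with no marker at 0. Within fibroblast-like cells Col4a6 was highest in an unnamed cluster led by Tspan8, Epyc and Lgr5, at 25.6 ± 17.1 CPM (SD, n = 5 mice, without WT2), which counted 376, 5 and 35 cells in WT and 204, 485 and 47 in Arom mice. The part of the mesothelial markers and of this cluster in the fall of Col4a6 was not tested. Col28a1, a chain of peripheral nerve, was called higher (log2 fold change 2.64, SE 0.65, adjusted p = 0.043, edgeR) on 5, 4 and 2 UMIs in WT and 86, 91 and 17 UMIs in Arom mice. It passed the filter on low counts through its Arom counts only, so a lower call was hardly possible. The 10 glial markers summed to 567 to 654 CPM in WT and 399 to 556 CPM in Arom fibroblast-like cells, and their part in the Col28a1 call was not tested.

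Collagen VI, the multiplexins and the remaining chains were not called. Col6a1, Col6a2 and Col6a3, which form the common trimer of collagen VI, had log2 fold changes of 0.19, 0.16 and 0.24. Col6a6 stood at 34.5, 41.7 and 46.6 CPM in WT and at 10.9, 9.45 and 25.8 CPM in Arom mice, without overlap, and just missed the threshold (-1.41, SE 0.38, adjusted p = 0.051, edgeR). Among the multiplexins, Col18a1 had a log2 fold change of 0.62 (SE 0.18, adjusted p = 0.062) and Col15a1 of 0.33 (SE 0.23, adjusted p = 0.343) in the edgeR fit. Col9a2, Col19a1 and Col26a1 did not pass the filter on low counts.

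**Figure D3:**
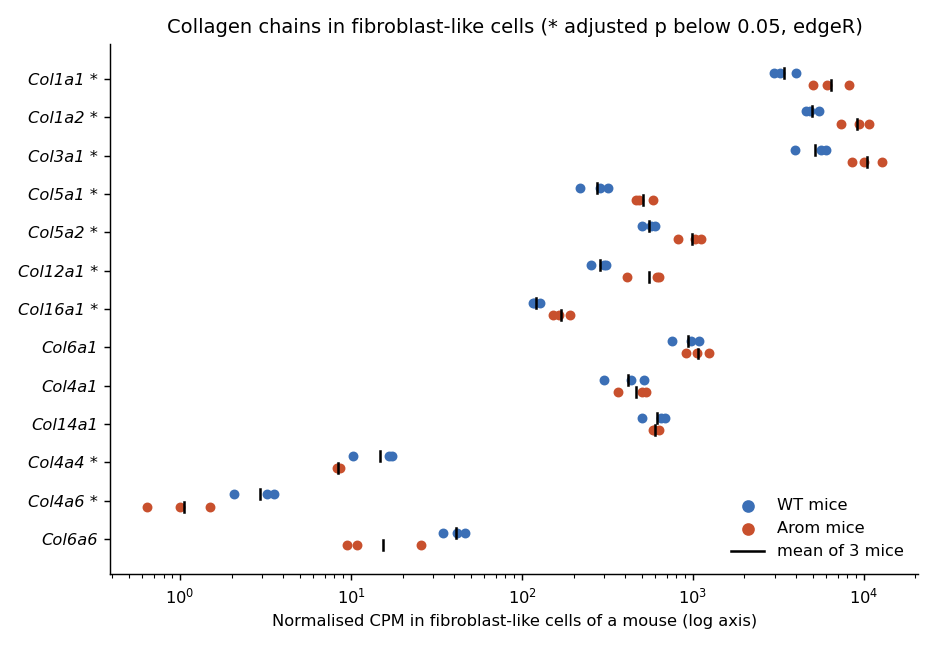
Normalised CPM (log axis) of 13 chains in the fibroblast-like cells of each mouse, with 1 point per mouse, a black bar for the mean of 3 mice and an asterisk for an adjusted p below 0.05 (edgeR). The 3 Arom points of Col1a1, Col1a2, Col3a1, Col5a1 and Col5a2 all lie above the 3 WT points, while those of Col6a1, Col4a1 and Col14a1 mix with them.

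These calls depend on the barcodes and on single mice. Within the stated limits none of 29 tested chains and 1 of 10773 tested genes was called, with log2 fold changes of 0.65 for Col1a1, 1.06 for Col3a1 and -0.13 for Col12a1. Without WT2, WT3, Arom1 or Arom2 no chain was called, while 5 to 24 genes were called higher in all. Without WT1, 1 chain was called, and without Arom3, 17, for which the share of all genes called is not given. With the replicate number as a block, 5 chains were called higher and 4 lower, against 5.86% and 5.27% of all tested genes, and Col1a1 (adjusted p = 0.066), Col3a1 (0.064) and Col1a2 (0.0501) no longer passed the edgeR test.

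Fibroblast-like cells are a mixture whose makeup differed between genotypes. Esr1-high hernia-associated fibroblasts (HAFs), a subgroup named for the estrogen receptor gene by the study on these samples, counted 27, 5 and 5 cells in WT and 1432, 1795 and 566 in Arom mice, and Mmp3-high HAFs 43, 0 and 3 against 634, 1092 and 3. As named here, neither could be compared between genotypes. Among the named subgroups Mmp3-high HAFs had the highest share of collagen UMIs in Arom1 (6.43%) and Arom2 (4.88%). In the 43 cells of WT1 it was 1.85%, below the 2.48% of WT1 tenocytes. Mmp3-high HAFs were led by Col1a2 (17882 CPM), Col3a1 (17732 CPM) and Col1a1 (14084 CPM) in the mean of these 2 Arom mice, against 6355, 4600 and 4447 CPM in WT1. Esr1-high HAFs had 2.72%, 2.34% and 2.83% in the Arom mice and 2.24% in WT1. Beside these HAFs and the FAPs, Dmkn-high cells and tenocytes, 4801 fibroblast-like cells were in subgroups that could not be named. Among them, clusters of 1843 and 581 cells scored highest on the Esr1-high list, at 2.56 and 2.71. Both fell under the required 0.75 of the best cluster of that list (5.00), so the counts of Esr1-high HAFs depend on this limit. Clusters of 336 and 59 cells also scored highest on that list, but were led by markers of other cell types.

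Within the 3 subgroups with at least 20 cells in every mouse, the share of collagen UMIs was also higher in each Arom mouse than in any WT mouse. It was 1.47%, 1.87% and 2.14% in WT and 3.13%, 2.70% and 2.79% in Arom FAPs, and 1.35%, 1.54% and 1.99% against 4.65%, 3.20% and 2.98% in Dmkn-high cells. In tenocytes it was 2.48%, 2.16% and 2.25% against 3.86%, 3.75% and 3.82%. Fewer chains passed the unblocked test within a subgroup, whereas with the replicate number as a block 11 rose and 3 fell in FAPs, 1 rose and 1 fell in Dmkn-high cells and 6 rose in tenocytes. Shares of all genes called under the block are not given for these subgroups, so the blocked counts have no background beside them. In FAPs Col16a1 (log2 fold change 0.77), Col12a1 (0.89) and Col5a1 (0.83) rose and Col4a4 (-0.78) fell among 29 tested chains, where 1.77% of all genes were called higher and 1.24% lower.

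In Dmkn-high cells Col16a1 (0.90) rose and Col6a6 (-1.62) fell among 22 tested chains, where 0.568% and 0.577% of all genes were called higher and lower. Col3a1 stood there at 4522, 5230 and 7148 CPM in WT and at 20440, 14696 and 11134 CPM in Arom mice and did not pass (log2 fold change 1.45, SE 0.30, adjusted p = 0.056, edgeR). Dmkn-high cells pooled clusters of 2266, 1667 and 635 cells, and the Mmp3-high list gave the second score of the cluster of 1667 cells. FAPs and tenocytes pooled several clusters too, and the part of the mix within each subgroup was not tested. In tenocytes Col5a1 (0.98) and Col1a1 (0.75) rose among 25 tested chains, where 0.396% of all genes were called higher and 0.291% lower. Tenocyte Col1a1 stood at 7918, 6910 and 7407 CPM in WT and at 13362, 10929 and 13036 CPM in Arom mice. With each mouse left out in turn, 0 to 9 chains were called in FAPs, 0 to 8 in Dmkn-high cells and 0 to 6 in tenocytes. The share of all genes called in those fits is not given. Within the stated limits no chain was called in Dmkn-high cells or tenocytes. Equal weight in limma was given to each fibroblast-like cluster with at least 20 cells in every mouse, which left out the clusters named Esr1-high and Mmp3-high HAFs. In this fit 7 of 33 tested chains were called higher and 1 lower, against 1.60% and 1.18% of all tested genes.

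Genes that act on collagen were followed from a list of 47 genes. Mmp2 and Pcolce of this list are also among the 12 fibroblast-like markers. Of 32 genes for the hydroxylation, folding, export, cleavage and crosslinking of collagen, all tested in fibroblast-like cells, 9 rose and 1 fell, against 7.92% of all tested genes called higher and 5.72% lower, with a median log2 fold change of 0.31. Adamts2, which removes the N-propeptide of fibrillar procollagens, rose from 400, 322 and 398 CPM in WT to 886, 812 and 720 CPM in Arom mice (log2 fold change 1.11, SE 0.14, adjusted p = 0.017, edgeR). P4ha3, a prolyl 4-hydroxylase subunit, had a log2 fold change of 2.13 (SE 0.35, adjusted p = 0.022, edgeR) and Plod2, the telopeptide lysyl hydroxylase, one of 1.67 (SE 0.29, adjusted p = 0.023, edgeR). P4hb, Plod1, P3h1, Fkbp10, Bmp1 and Loxl1 rose as well, and Pcolce2, an enhancer of C-propeptide removal, fell (-1.03, SE 0.19, adjusted p = 0.024, edgeR).

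Of 8 tested genes for collagen receptors and uptake, 1 was called in each direction, against 7.92% of all tested genes called higher and 5.72% lower. Mrc2, the endocytic collagen receptor, rose (0.60, SE 0.09, adjusted p = 0.021, edgeR) and Itga1, a collagen-binding integrin chain, fell (-0.72, SE 0.18, adjusted p = 0.042, edgeR). Of 4 tested collagen-degrading proteases, Mmp2 (0.74, SE 0.17, adjusted p = 0.039) and Mmp9 (adjusted p = 0.034) rose in the edgeR fit, against 7.92% of all tested genes called higher. Mmp9 stood at 0.13 CPM or less in each WT mouse and 4.25, 3.92 and 0.47 CPM in the Arom mice, and passed the filter on low counts through its Arom counts only. Of 44 tested genes of the whole list 12 were called higher and 2 lower. None was called within the stated limits or without WT2, WT3, Arom1 or Arom2, 1 was called without WT1, and 17 were called higher and 6 lower without Arom3. The share of all genes called without WT1 or without Arom3 is not given.

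Collagen UMIs counted in endothelial barcodes were also higher in Arom mice, and the size of the change depended on 1 small cluster. Of 30 tested chains 17 were called higher in Arom mice and 0 lower, against 10.9% and 8.31% of all tested genes, with a median log2 fold change of 1.57 over the tested chains and -0.02 over all genes. Col1a1 stood at 28.7, 42.9 and 36.2 CPM in WT and at 751, 499 and 209 CPM in Arom mice (log2 fold change 3.76, SE 0.42, adjusted p = 0.002, edgeR). Col3a1 stood at 54.0, 107 and 77.6 CPM against 1319, 917 and 459 CPM (3.50, SE 0.39, adjusted p = 0.002, edgeR).

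The cluster in question was named endothelial by its marker score, but its 10 leading genes, among them Mki67, Top2a and Cdk1, are genes of the cell cycle, and fibroblast-like markers gave its second score. It counted 15, 67 and 34 cells in WT and 117, 78 and 83 in Arom mice, between 0.468% and 5.06% of the endothelial cells of a mouse. It held 4.63%, 14.7% and 7.75% of their collagen UMIs in WT and 67.8%, 56.5% and 35.6% in Arom mice, and of the Col3a1 UMIs it held 24.3%, 64.3% and 52.8% in WT and 92.3%, 90.4% and 69.9% in Arom mice. The 12 fibroblast-like markers, none of them at 0, summed to 4036 to 7874 CPM in this cluster in WT and 10169 to 13110 CPM in Arom mice, against 29519 to 47123 CPM in fibroblast-like cells. The 10 endothelial markers summed to 4388, 4960 and 5471 CPM in this cluster in WT and to 1432, 1124 and 4021 CPM in Arom mice, so that its makeup differed between genotypes. In the other endothelial cells these markers summed to 8475, 8885 and 9088 CPM in WT and to 7169, 7535 and 7647 CPM in Arom mice, also without overlap. Endothelial values are therefore given with and without the cluster, a choice made after seeing the data.

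Without the cell cycle cluster 12 of 24 tested chains were called higher and 0 lower, against 8.25% and 6.03% of all tested genes, with a median log2 fold change of 0.95 over these chains. Col3a1 stood at 40.2, 39.2 and 36.7 CPM in WT and at 123, 105 and 154 CPM in Arom mice (1.72, SE 0.15, adjusted p = 0.002, edgeR). Col1a1 stood at 24.9, 18.5 and 21.8 CPM against 63.9, 45.4 and 76.8 CPM (1.52, SE 0.19, adjusted p = 0.005, edgeR). Neither chain overlapped between genotypes. Over all barcodes of a mouse the log2 fold changes were 1.76 for Col3a1, 1.69 for Col1a1, 1.62 for Col1a2 and 1.63 for Col5a1, against 1.72, 1.52, 1.51 and 1.66 in endothelial cells without the cluster, and the part of free RNA in the endothelial values was not tested. The fibroblast-like markers then summed to 450, 269 and 355 CPM in WT and 366, 402 and 629 CPM in Arom mice, which overlapped. The endothelial markers were lower in each Arom mouse than in any WT mouse there, and their part in the collagen calls was not tested. The collagen share of endothelial UMIs was 0.196% ± 0.045 in WT and 0.226% ± 0.025 in Arom mice (SD, n = 3), in place of 0.209% ± 0.051 and 0.449% ± 0.112 with the cluster.

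Both multiplexins were called with and without the cluster, and no collagen IV chain was. Col18a1 stood at 23.1, 25.3 and 26.9 CPM in WT and at 144, 101 and 76.8 CPM in Arom endothelial cells (2.09, SE 0.21, adjusted p = 0.001, edgeR), and its log2 fold change was 2.26 without the cluster. Col15a1, the other multiplexin, stood at 86.0, 87.5 and 118 CPM against 232, 250 and 192 CPM (1.21, SE 0.16, adjusted p = 0.003, edgeR), and had 1.37 without the cluster. Of the collagen IV chains, 0 of 4 tested with the cluster passed. Col4a1 stood at 763, 1150 and 1309 CPM in WT and 747, 1022 and 990 CPM in Arom mice (-0.22, SE 0.21, adjusted p = 0.475, edgeR). With the replicate number as a block Col4a2 (-0.32, adjusted p = 0.040, edgeR) was called lower.

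The other endothelial chains called higher were Col1a2 (3.66), Col5a1 (3.25), Col5a2 (2.95), Col14a1 (2.65), Col6a2 (2.52), Col6a1 (2.50), Col5a3 (2.24), Col16a1 (2.23), Col12a1 (2.10), Col11a1 (1.87), Col6a3 (1.73), Col27a1 (1.41) and Col8a1 (0.52). Without the cluster Col1a2 (1.51), Col5a1 (1.66), Col5a2 (1.30), Col14a1 (1.03), Col6a2 (1.12), Col5a3 (1.09), Col16a1 (1.51) and Col12a1 (0.63) were still called, whereas Col6a1 (0.96), Col6a3 (0.60), Col27a1 (0.69) and Col8a1 (0.20) were not and Col11a1 was not tested. Within the stated limits, all clusters included, the collagen share was 0.174% ± 0.039 in WT and 0.206% ± 0.022 in Arom mice (SD, n = 3), and 12 of 18 tested chains were called higher, against 5.18% of all tested genes called higher and 3.20% lower, among them Col1a1 (1.82), Col3a1 (2.44) and Col18a1 (2.33). Without barcodes marked as doublets 17 chains were called higher.

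The genotype effect was compared between the cell types in a test of the difference itself. In a joint fit with the mouse as a block, 18 of 37 chains had a smaller log2 fold change in fibroblast-like than in endothelial cells and 0 a larger one, against 10.8% and 4.39% of all tested genes. The difference was -2.74 for Col1a1 (SE 0.30, adjusted p = 0.001, edgeR), -2.47 for Col3a1 and -2.68 for Col14a1. Without the cell cycle cluster 5 of 36 chains passed, against 7.01% of all tested genes with a smaller and 4.30% with a larger value in fibroblast-like cells, namely Col18a1 (-1.61), Col4a5 (-1.79), Col16a1 (-1.02), Col15a1 (-1.03) and Col14a1 (-1.04). Col1a1 (-0.61, adjusted p = 0.185) and Col3a1 (-0.71, adjusted p = 0.107) did not pass the edgeR test then. Col4a5 did not pass the filter on low counts in endothelial cells without the cluster. Within the stated limits 5 chains passed the test of the difference, and the difference of Col4a5 changed sign.

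**Figure D4:**
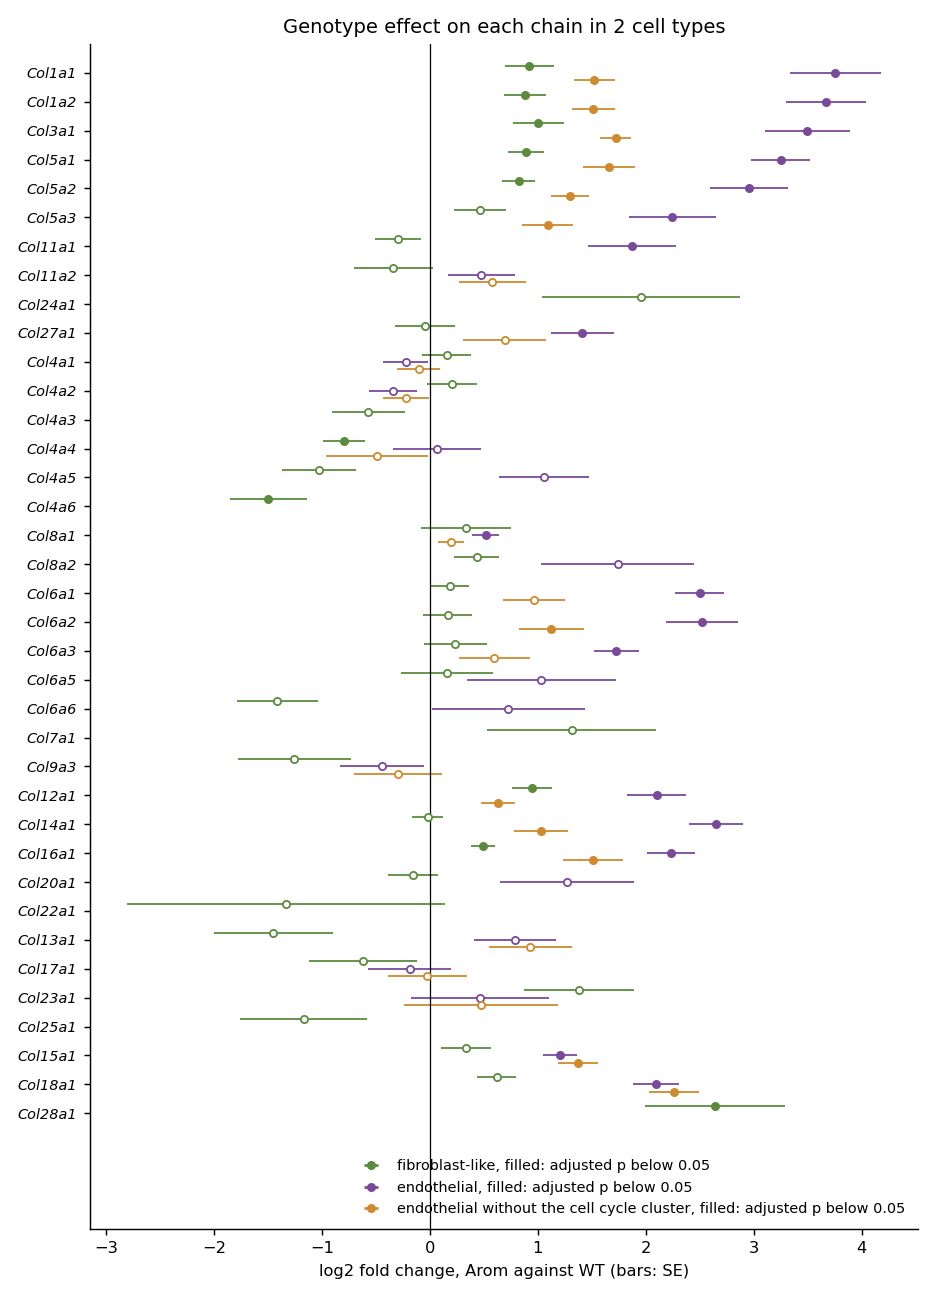
Log2 fold change of Arom against WT mice (bars, SE) for each tested chain in fibroblast-like cells and in endothelial cells with and without the cell cycle cluster, filled where the adjusted p is below 0.05 (edgeR). The fibrillar chains Col1a1, Col1a2, Col3a1, Col5a1 and Col5a2 lie between 0.82 and 1.00 in fibroblast-like cells, between 2.95 and 3.76 in endothelial cells and between 1.30 and 1.72 in endothelial cells without the cluster, while Col4a1 and Col4a2 lie near 0 in all of them.

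Smooth muscle cells or pericytes, muscle stem cells or myoblasts, glia and mesothelial cells also held chains that rose, and none fell in the unblocked fit. With the replicate number as a block, Col4a5 (-0.75) was called lower in smooth muscle cells or pericytes, and Col4a3 (-1.98) and Col4a4 (-2.25) in mesothelial cells. In smooth muscle cells or pericytes 10 of 23 tested chains were called higher, against 1.60% of all tested genes called higher and 0.500% called lower, with Col5a1 at 47.1, 50.1 and 40.4 CPM in WT and 130, 147 and 100 CPM in Arom mice (1.45, SE 0.17, adjusted p = 0.009, edgeR). Col3a1 (1.59), Col1a2 (1.34), Col1a1 (1.32), Col5a2 (1.32), Col5a3 (1.15), Col16a1 (1.11), Col6a3 (1.01), Col6a1 (1.00) and Col6a2 (0.99) were the others. Their 12 fibroblast-like markers summed to 1709 to 3666 CPM in WT and 3144 to 3727 CPM in Arom mice. Without 1 mouse, between 1 and 17 chains were called here, and the share of all genes called in those fits is not given.

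In muscle stem cells or myoblasts 6 of 18 tested chains were called higher, against 1.16% of all tested genes called higher and 0.790% called lower. Col5a3 was the most even of them, at 86.3, 106 and 107 CPM in WT and 179, 180 and 180 CPM in Arom mice (0.84, SE 0.13, adjusted p = 0.030, edgeR). Col8a1 (2.00), Col27a1 (1.34), Col3a1 (1.23), Col1a2 (3.05) and Col1a1 (2.98) rose too, the last from 21.7, 29.8 and 19.7 CPM to 130, 371 and 63.9 CPM. The fibroblast-like markers summed to 442 to 767 CPM in WT and 1012 to 2797 CPM in Arom mice in these cells, and the smooth muscle or pericyte markers to 504 to 668 CPM and 1004 to 1435 CPM, and the part of both was not tested. No chain was called without WT2, WT3, Arom1 or Arom2 or within the limits without the upper one, while 11 were called without Arom3 and 10 with the replicate number as a block. The share of all genes called in those fits is not given.

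In glia 4 of 26 tested chains were called higher, against 0.313% of all tested genes called higher and 0.167% called lower, namely Col18a1 (0.98), Col16a1 (0.79), Col5a1 (0.91) and Col1a1 (0.79). The fibroblast-like markers summed to 7263 to 8898 CPM in WT and 8438 to 8973 CPM in Arom glia. Without Arom3 6 chains were called, without any other single mouse none, and with the block 12, for which the share of all genes is not given. In mesothelial cells Col5a2 alone of 25 tested chains was called, at 96.2, 75.2 and 105 CPM in WT and 306, 381 and 221 CPM in Arom mice (1.73, SE 0.23, adjusted p = 0.036, edgeR), against 0.249% of all tested genes called higher and 0.0343% called lower. Without Arom3 5 chains were called higher and 6 lower, and without any other single mouse none. The share of all genes called without Arom3 is not given for glia or mesothelial cells. The collagen share of mesothelial UMIs overlapped between genotypes, at 0.837%, 0.844% and 1.18% in WT and 0.743%, 0.675% and 1.24% in Arom mice.

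No chain passed the unblocked edgeR test in macrophages or monocytes, T cells, lymphatic endothelial cells or myonuclei. At an unadjusted p of 0.05, 16 of 20, 13 of 13, 13 of 19 and 5 of 16 tested chains passed in this order, against 7.66%, 14.7%, 6.70% and 9.43% of all tested genes. DESeq2 called 10 chains in macrophages or monocytes, against 0.566% of all genes called higher and 0.0636% lower, and 5 in T cells, against 0.548% and 0.0146%. Over all genes in the edgeR fit, 0.00% were called in macrophages or monocytes and in lymphatic endothelial cells, while 0.590% and 0.0347% were called higher and lower in T cells and 0.0931% and 0.306% in myonuclei. With the replicate number as a block, 8 chains were called higher in macrophages or monocytes, and in myonuclei Col12a1 (1.50) was called higher and Col4a2 (-1.08) lower. The share of all genes called under the block is not given for these cells.

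The collagen share, in cells not known as makers of fibrillar collagen, was 0.072%, 0.120% and 0.085% in WT and 0.459%, 0.449% and 0.185% in Arom macrophages or monocytes, and 0.210%, 0.029% and 0.151% against 1.59%, 1.04% and 0.294% in T cells. The fibroblast-like markers summed to 952 to 2486 CPM in WT and 2154 to 4998 CPM in Arom macrophages or monocytes, and to 224 to 4976 CPM against 3876 to 10812 CPM in T cells. Without doublets the macrophage share was 0.053% ± 0.011 in WT and 0.142% ± 0.049 in Arom mice, and the T cell share was 0.13% ± 0.092 and 0.977% ± 0.643 (SD, n = 3). The part of free RNA and of these markers in the macrophage and T cell shares was not tested.

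The balance of collagen I and collagen III, which is often followed in hernia tissue, was taken as Col1a1 UMIs per Col3a1 UMI. In fibroblast-like cells it was 0.755, 0.571 and 0.663 in WT and 0.645, 0.606 and 0.592 in Arom mice, so that the groups overlapped. The log2 ratio differed by -0.10 (two-sided exact permutation test, p = 0.6, where 3 against 3 mice cannot go below 0.1). Tenocytes had the highest ratio, 2.87 ± 0.24 in WT and 2.83 ± 0.72 in Arom mice (SD, n = 3), and FAPs 0.402 ± 0.050 and 0.367 ± 0.038. Muscle stem cells or myoblasts had 0.079 ± 0.024 and 0.230 ± 0.129, and mesothelial cells 0.169 ± 0.031 and 0.302 ± 0.097.

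**Figure D5:**
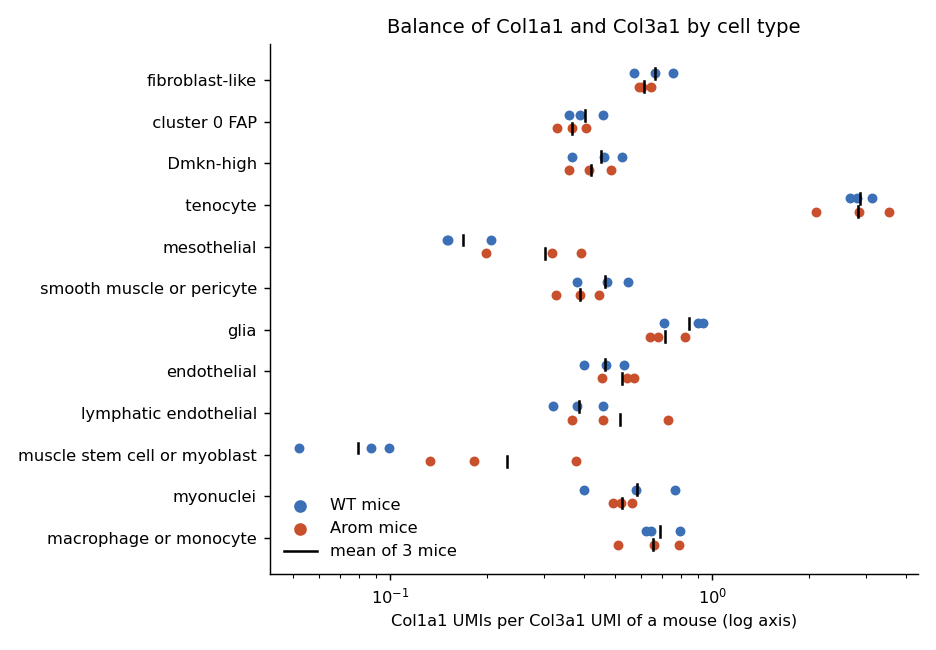
Col1a1 UMIs per Col3a1 UMI (log axis) in each cell type, with 1 point per mouse and a black bar for the mean of 3 mice. Tenocytes lie between 2.10 and 3.54, and the WT and Arom points overlap in fibroblast-like cells.

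Over all barcodes of a mouse, which mixes the number of cells of a type with the RNA per cell so that fewer cells and less RNA cannot be told apart, collagen chains made up 0.884%, 0.856% and 0.792% of UMIs in WT and 2.51%, 2.19% and 1.85% in Arom mice. Of 39 tested chains 16 were called higher and 3 lower, against 12.4% and 11.2% of all tested genes. Col5a1 had the lowest adjusted p, at 118, 108 and 95.9 CPM in WT and 386, 329 and 284 CPM in Arom mice (1.63, SE 0.15, adjusted p = 0.016, edgeR). Col3a1 (1.76), Col1a1 (1.69), Col12a1 (1.67), Col1a2 (1.62), Col5a2 (1.54), Col8a2 (1.34), Col16a1 (1.22), Col6a1 (1.00), Col6a2 (0.98), Col5a3 (0.95), Col6a3 (0.88), Col14a1 (0.82), Col18a1 (0.71), Col15a1 (0.64) and Col11a1 (0.54) rose as well.

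The 3 that fell over all barcodes were Col20a1 (-1.09), Col9a3 (-1.53) and Col25a1 (-1.32). Col20a1 is the chain of glia, which counted 410, 592 and 657 cells in WT and 282, 302 and 304 in Arom mice, and fibroblast-like cells counted 3431, 2330 and 1427 against 4811, 6688 and 3353. Col5a3, Col6a1, Col6a2, Col6a3, Col8a2, Col11a1, Col14a1, Col15a1 and Col18a1 were called higher over all barcodes and were not called within fibroblast-like cells. Within the stated limits none of 33 chains was called, and none without WT2, WT3, Arom1 or Arom2. The signs of Col20a1, Col8a2 and Col11a1 changed within the limits.

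Neighbouring genes gave a last view of the chains. Col3a1 (chr1:45311538-45349706) and Col5a2 (chr1:45374321-45503282), whose genes lie on opposite strands with a gap of 24615 bases on chromosome 1 of GRCm38, had fibroblast-like log2 fold changes of 1.00 and 0.82 and endothelial ones of 3.50 and 2.95, or 1.72 and 1.30 without the cell cycle cluster. Col4a3 and Col4a4, with starts 72 bases apart on the same chromosome, had -0.57 and -0.80 in fibroblast-like cells, and Col4a5 and Col4a6 on chromosome X, 1309 bases apart, had -1.03 and -1.50. Col6a1 and Col6a2 on chromosome 10 had 0.19 and 0.16 in fibroblast-like, 2.50 and 2.52 in endothelial cells, 0.96 and 1.12 there without the cell cycle cluster, and 1.00 and 0.99 in smooth muscle cells or pericytes. Col6a5 and Col6a6 on chromosome 9 went apart in fibroblast-like cells, with 0.16 and -1.41, of which neither passed the test.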

How the data were processed

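The authors deposited 1 table of UMI counts for 16494 genes and 63647 barcodes, raw and without normalization, made by Cell Ranger 3.0.2 on mm10 plus human CYP19A1. How genes were filtered is not given in the sources used here. Many barcodes lie outside the limits that the study states (200 to 2500 genes, at least 1000 UMIs, at most 5% mitochondrial UMIs). The members, marker lists and gene lists were chosen with earlier results of these data known.

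Counts were log-normalized to 10000 per cell, and the 2000 most variable genes without any collagen chain were reduced to 30 principal components and clustered (20 neighbors, Leiden, resolution 0.8, seed 1). Clusters were named by marker score. A name needed at least 3 detected markers, and a fibroblast-like subgroup a score of at least 0.75 of the best cluster of its list. Names rebuilt this way may differ from those of the study. Doublets were marked with Scrublet, 1266 in all, and were left out only in an alternative. Its automatic threshold marked none in WT2 and WT3, where the median threshold of the other mice was used.

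Sums of UMIs over the cells of a type were made for every mouse, and each type with at least 20 cells in every mouse was fitted with edgeR 4.0.16 in R 4.3.3 (TMM, filterByExpr, quasi-likelihood test, Benjamini-Hochberg over all genes tested, threshold 0.05). Fold changes are log2, Arom against WT. The test was checked on simulated data with known changes. It recovered 66% of 2-fold and 94% of 4-fold changes in fibroblast-like cells, and 71% and 99% in endothelial cells. The simulation changed 200 genes, drew counts at the trended dispersion and held no change in cell mix, so these rates need not hold for the real data. A chain without a call is thus not shown to be unchanged. Levels are given for mice with at least 10 cells of a type. Full statistics were given to called chains and to 9 fibrillar and basement membrane chains fixed by name, and the 3 highest chains are named per cell type. The pathway genes named with full values are those with the 4 lowest adjusted p-values and others chosen after their values were seen. Each mouse is 1 replicate, and p-values measure the spread between 3 mice per group. The alternatives were DESeq2, RLE size factors, no filter on low counts, the stated limits with and without the upper limit on genes, no doublets, library sizes without collagen, a replicate block, each mouse left out, equal weight of clusters and limma voom. Groups taken from the order of the columns of the table and a fit without the endothelial cluster led by cell cycle genes were added after seeing the data. Per the study's methods, a WT mouse and an Arom littermate were processed together on each of 3 dates, but whether the replicate numbers mark these dates is not given in the sources used here. Deviations of same-numbered mice from their group means correlated with r of -0.20 to 0.44 over genes, and all 3 pairs exceeded 0.1 in 4 of 14 groups of cells (endothelial cells, macrophages or monocytes, muscle stem cells or myoblasts, and myonuclei), not over all cells or in fibroblast-like cells. The numbers were therefore used as a block in an alternative. Other tools were scanpy 1.11.5 and leidenalg 0.10.2 for clustering, scipy 1.17.1 and pandas 2.3.3 for tables and exact tests, and matplotlib 3.10.9 for figures, all in Python 3.11.15.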

Additional observations from a re-analysis of the deposited data

Results flagged for a closer look

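The genotype effect of 18 chains differed between fibroblast-like and endothelial cells in the edgeR interaction test, each with a smaller log2 fold change in fibroblast-like cells. The differences (fibroblast-like minus endothelial, log2) were -3.51 for Col4a6, -2.74 for Col1a1, -2.72 for Col1a2, -2.68 for Col14a1, -2.53 for Col6a2, -2.47 for Col3a1, -2.40 for Col6a1, -2.38 for Col5a1 and -2.23 for Col11a1. They were -2.17 for Col5a2, -2.13 for Col4a5, -1.91 for Col5a3, -1.79 for Col16a1, -1.57 for Col6a3, -1.52 for Col27a1, -1.49 for Col18a1, -1.18 for Col12a1 and -0.91 for Col15a1. Col4a6 had 8 UMIs in all endothelial cells. The sum of the fibroblast-like markers in endothelial cells was 463 to 559 CPM in WT and 1477 to 2199 CPM in Arom mice, and its part in these differences was not tested. Without the endothelial cluster led by cell cycle genes it was 269 to 450 CPM and 366 to 629 CPM, and 5 of the 18 chains (Col18a1, Col4a5, Col16a1, Col15a1 and Col14a1) still passed the test. Of these, Col4a5 did not pass the filter on low counts in those endothelial cells alone.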

How the results depend on the processing

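In fibroblast-like cells 8 to 13 chains were called under DESeq2, RLE size factors, no filter, the replicate block, library sizes without collagen, the limits without the upper one, no doublets, equal weight of clusters and column-order groups, against 10 in the main comparison. Within the stated limits the counts were 0 in fibroblast-like cells, over all cells, in Dmkn-high cells and in tenocytes, 2 in FAPs and 5 for the difference between cell types, with fewer barcodes and genes tested. Without the upper limit on genes they were 12 over all cells, 0 in glia and in muscle stem cells or myoblasts and 1 in tenocytes. DESeq2 called 5 chains in mesothelial cells, 10 in macrophages or monocytes, 9 in glia, 5 in T cells, 8 in FAPs, 8 in Dmkn-high cells and 5 in tenocytes. Without a filter on low counts 4 were called in lymphatic endothelial cells, 3 in mesothelial cells, 11 in muscle stem cells or myoblasts, 1 in myonuclei, 18 in T cells, 9 in FAPs, 5 in Dmkn-high cells and 5 in tenocytes. Without doublets 2 were called in mesothelial cells, 2 in glia and 1 in T cells. Column-order groups gave 5 in mesothelial cells, 2 in macrophages or monocytes, 8 in glia and 1 in myonuclei. The cause of these moves was not tested. Except where printed, shares of all genes called are not given for the alternatives here and below, so these counts have no background beside them.

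With the replicate block 9 chains were called in fibroblast-like cells (5 higher, 4 lower), 18 over all cells (16 and 2), 18 in endothelial cells (17 and 1), 12 in smooth muscle cells or pericytes (11 and 1), 5 in mesothelial cells (3 and 2), 8 in macrophages or monocytes (8 and 0), 12 in glia (12 and 0), 10 in muscle stem cells or myoblasts (10 and 0), 2 in myonuclei (1 and 1), 14 in FAPs (11 and 3), 2 in Dmkn-high cells (1 and 1), 6 in tenocytes (6 and 0) and 0 in lymphatic endothelial cells and T cells.

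With each mouse left out in turn, 0 to 19 chains were called over all cells, 0 to 17 in fibroblast-like cells, 15 to 19 in endothelial cells, 1 to 17 in smooth muscle cells or pericytes, 0 to 11 in mesothelial cells, 0 to 12 in macrophages or monocytes, 0 to 6 in glia, 0 to 11 in muscle stem cells or myoblasts, 0 to 2 in myonuclei, 0 to 13 in T cells, 0 in lymphatic endothelial cells, 0 to 9 in FAPs, 0 to 8 in Dmkn-high cells, 0 to 6 in tenocytes and 13 to 21 for the difference between cell types. The fewest calls over all cells and in fibroblast-like cells came with 0 to 24 genes called higher in the whole table. Of 618 single values under these fits 327 kept their call, 288 lost it, 2 gained one and 1 changed sign, which was Col4a1 in fibroblast-like cells without WT1 (-0.041, range over the fits -0.041 to 0.33). The log2 difference of the Col1a1 to Col3a1 ratio ranged from -0.21 to -0.0039.

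Signs changed within the stated limits for Col11a1 (-0.20), Col8a2 (-0.37) and Col20a1 (0.48) over all cells, Col12a1 in fibroblast-like cells (-0.13), and the difference between cell types for Col4a5 (1.16) and Col6a3 (0.048). Without the endothelial cell cycle cluster, an alternative chosen after seeing the data, the difference between cell types passed for 5 chains and was 0.26 for Col12a1, and the collagen share of endothelial cells differed by 0.0299 percentage points. The Arom minus WT difference of the collagen share was 0.53 percentage points over all cells, 0.032 in endothelial, 0.0094 in lymphatic endothelial cells, 0.0387 in macrophages or monocytes and 0.809 in tenocytes within the limits, and 0.0881 in macrophages or monocytes without doublets. It turned positive in mesothelial cells without WT3 (0.045), Arom1 (0.0025) or Arom2 (0.036). Its range without single mice was 1.17 to 1.50 over all cells, 1.15 to 1.55 in fibroblast-like cells, 0.200 to 0.304 in endothelial cells and -0.246 to 0.045 in mesothelial cells. Chains below about 1 CPM, such as Col28a1 in fibroblast-like cells, rest on few UMIs, and their folds are uncertain at this depth.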

Other observations

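In endothelial cells 18 of 30 tested genes for the processing of collagen were called higher in Arom mice and 0 lower (edgeR), against 10.9% and 8.31% of all tested genes, with a median log2 fold change of 0.68, and 3 of 3 tested collagen-degrading proteases (Mmp2, Mmp14 and Ctsk) were called higher. Without the endothelial cell cycle cluster these were 8 of 28 and 3 of 3 tested genes, against 8.25% of all. Mmp2 and Pcolce, both called with the cluster, are also fibroblast-like markers, so these calls and the marker sums share genes. Over all barcodes the same lists had 21 of 32 and 2 of 4 tested genes called higher, against 12.4% of all. Itga1 was called lower in fibroblast-like cells, in endothelial cells and over all barcodes. The 5686 barcodes without a cell type name had collagen shares of 0.549%, 0.515% and 0.561% in WT and 1.43%, 0.887% and 0.971% in Arom mice, whereas those within the stated limits had 1.55%, 1.71% and 1.94% in WT and 1.76%, 1.11% and 1.94% in Arom mice, which overlapped.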
